A study of Mus musculus with 5 samples.

Results

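Mediator is the large protein complex that sits between DNA-bound activators and RNA polymerase II. Its subunits form a head and a middle, which contact the polymerase, a tail, which many activators bind, and a kinase module that attaches reversibly. MED14 is the scaffold that holds head, middle and tail together. In embryonic stem (ES) cells Mediator is known to occupy the enhancers of pluripotency genes together with cohesin.

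The guides described here are the rows of a pooled mouse CRISPR library whose gene name is MED followed by a number, together with any row named CDK8, CDK19 or CCNC. No row carried the last 3 names, and the rule gave 170 guides to 17 genes, at 10 guides per gene, out of 17820 guides in all and 1682 targeted genes. Head subunits were represented by Med6, Med8, Med17 and Med20, middle subunits by Med1, Med4, Med21, Med26 and Med31, the scaffold by Med14, tail subunits by Med15, Med16, Med23, Med27 and Med30, and the kinase module by Med12 and Med13. The placing of Med27 and Med30 with the tail follows recent structures and has differed between schemes.

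In such a screen a lentivirus delivers 1 guide RNA to a cell, the guide directs the Cas9 nuclease to its gene, and the number of reads on the guide reports how common the cells that carry it are. The libraries were 2 preparations of the plasmid pool and 1 sample each of transduced cells labelled day 5, day 8 and day 12. All 5 samples, the plasmid preparations included, are labelled Ainv15(iNgn2 Tubb3::GFP) for genotype, as embryonic stem cells and as untreated, and the cells were kept in ES cell medium with Zeocin. Titles count the days from transduction, whereas the treatment protocol counts the first of them from the start of selection. Guide counts hold no gene expression, so the cell type could not be checked against markers.

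Library totals ran from 1008492 to 3541896 reads. The 2 plasmid preparations are technical samples, and the 3 cell samples have no replicate culture, so every p-value here measures only the spread between plasmid preparations and departures from a straight course over days. Changes from plasmid to cells span transduction and selection as well as growth, which cannot be told apart here. A guide was analysed if both plasmid libraries held at least 30 reads of it, which kept 140 of the 170 guides, 5 to 10 per gene. The median kept guide to a Mediator gene had 197.5 and 70 reads in the plasmid libraries, and 36, 25.5 and 19 reads at days 5, 8 and 12.

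The first guides shown are those that mark the extremes of the set. They are the kept guides with 0 reads at day 12, 1 each to Med14, Med20 and Med26, the guide to Med8 that dropped furthest, the guide to Med14 that stayed closest to its plasmid level, the Med13 guide with the most reads at day 12, and 2 guides to Med1 that went in opposite directions. Each is 20 bases long and written 5′ to 3′ as in the deposited files, and the capitals mark the 12 bases next to the PAM, the seed of the guide.
Med14 guide 1: ttatatgcACACAGTCCCGG
Med14 guide 9: gtcccaggCGGTGCAATTGG
Med20 guide 8: atgcttggAGCAGAGAAACA
Med26 guide 6: gagataccCCATCACCAAAG
Med8 guide 2: agatgcccTGCTGAATCAAG
Med13 guide 1: aggcacgtGGAGGTGCAAAG
Med1 guide 4: acaggcaaCAACCCAATGAG
Med1 guide 7: gaatatgaTCAGACACCAAG

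Guides to 14 of the 17 Mediator genes fell over the time course and guides to 0 rose, by edgeR's quasi-likelihood test of the slope per day on reads summed per gene, with Benjamini-Hochberg adjustment over all 1682 genes and a threshold of 0.05. Over all genes the same test called 25.2% falling and 34.7% rising. At an unadjusted p under 0.05 guides to 0 Mediator genes rose as well, where those to 626 of the 1682 genes did. With DESeq2 guides to 14 Mediator genes fell and to 0 rose, where those to 454 and 623 of all genes did. The 3 without a call were Med1, Med6 and Med13. The scale is that of the typical guide in the library: non-targeting control guides ended above it, with a median log2 change of 0.58 at day 12, and with these controls as the scale guides to 16 of the 17 Mediator genes fell, all except Med13, where 63.5% of all genes fell and 1.13% rose.

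Taken guide by guide, 92 of the 140 kept guides fell and 1 rose in the same test run on single guides, against 24.0% falling and 16.1% rising among all guides to genes. Among the 893 kept non-targeting guides 4.82% were called falling and 45.5% rising. At day 12, 123 of the 140 guides stood below their plasmid level, where 52.8% of all guides to genes did, and 81 stood at a log2 change of -1 or lower, where 21.5% did. These log2 changes compare CPM (reads scaled to library size with TMM factors), with 1 added, with the mean of the plasmid libraries, so they understate the deepest losses.

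A gene's level of change is given as the median log2 change over its kept guides, with the standard deviation (SD) over those guides, which share a target and are not replicate cultures. A median of -1 or lower was reached by 4, 9 and 11 Mediator genes at days 5, 8 and 12. Among all genes 6.30%, 12.1% and 15.8% reached it. Medians of 1 or higher were seen for 0 Mediator genes on each day, and for 0.0595%, 0.178% and 1.19% of all genes. The 17 medians had their own median at -0.72, -1.10 and -1.75 on the successive days, while that over all genes was 0.0077, 0.014 and 0.0090. For 12 of the 17 genes the median was lower at each later day, a count that was not made over all genes. All 3 comparisons share the plasmid libraries.

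Med14 (chromosome X, 12675368 to 12762594; this and later coordinates are from RefSeq's GRCm38.p6 table) codes for the scaffold subunit. Its 10 guides held 2136 and 742 plasmid reads, then 179, 159 and 136 reads in the day 5, 8 and 12 cells. The reads were thus low at the first sampled day and changed little afterwards. The median log2 change began at -2.57 on day 5 (SD 1.13, n = 10 guides), and was -2.68 (SD 1.61) and then -2.57 (SD 1.48).

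At day 5 that median was the lowest of all 1682 genes, with the next genes at -2.55 and -2.52, and at day 12 Med14 ranked 60 from the lowest. It ranked 1 or 2 at day 5 in 10 of 11 alternative settings. A minimum of 100 plasmid reads left only guides 4 and 9, whose median was -1.27 at rank 101 of 1582. By edgeR's trend test its guides fell by 0.19 log2 units per day (SE 0.029, adjusted p = 0.000748), although the medians were level after day 5. From summed reads, 24.7% of the plasmid abundance was left at day 12, with a 95% exact binomial interval of 20.7% to 29.4% that covers counting error only.

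The guides to Med14 did not all go with the median. Guide 1 had 155 and 66 reads in the plasmid libraries, 4 at day 5 and 0 at days 8 and 12. With 3 reads as the limit that a count of 0 allows, it was at least 14.4-fold lower at day 12. Guide 7 went from 209 and 60 plasmid reads to 7, 2 and 3, and guide 3 from 224 and 77 to 9, 3 and 4. Guides 2, 4, 5, 6 and 8 lay between -3.62 and -1.23 at day 5 and between -2.77 and -2.02 at day 12. Guide 9 was not called, with 350 and 111 in the plasmid libraries and 97, 85 and 64 in the cells (log2 change -0.40 at day 12). Guide 10 was not called either, with 116 and 45 plasmid reads and 10, 16 and 18 in the cells (-1.70 at day 5, -0.75 at day 12). Guides 9 and 10 target opposite strands and share 14 bases, so the 2 guides without a call are not separate sites. Guide 6, which also shares 14 bases with guide 10 and has its cut 20 bases away, fell (-2.13).

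Of the 4 head genes, Med8 and Med20 held the lowest medians of the whole set at day 12, while Med17 and Med6 stayed above -1. Med8 (chromosome 4, 118409282 to 118415824), whose product forms a submodule of the head with that of Med20, had 2434 and 865 reads on 9 kept guides in the plasmid libraries and 374, 269 and 201 at days 5, 8 and 12. Its medians on those days were -1.16, -2.45 and -2.72 (SD 1.61 at the last, n = 9 guides), and all 9 guides stood below 0 at day 12. The fall was 0.15 log2 units per day (SE 0.013, adjusted p = 6.68e-05, edgeR).

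The 9 guides to Med8 spread widely, between -4.26 and -0.16 at day 12. Guide 2 went from 282 and 107 plasmid reads to 37, 10 and 3, and guide 6 from 394 and 132 to 46, 12 and 6. Guides 1, 3 and 4 ended at -3.80, -2.99 and -2.72, and guide 8 at -1.92. Guide 9 (385 and 111 plasmid reads, then 85, 74 and 75) and guide 7 (82 and 37, then 18, 35 and 21) were not called. Guide 10 fell and ended at -0.65 (edgeR adjusted p = 0.0365). The summed reads left 31.9% of the plasmid abundance where the median guide left 15.2%.

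Med20 (chromosome 17, 47611585 to 47624251) rested on the fewest guides, 5 of 10. These held 814 and 341 plasmid reads and 84, 37 and 38 reads at days 5, 8 and 12, and their median was -1.47, -3.42 and -2.70 (SD 1.93 at day 12, n = 5 guides). At day 8 it ranked 4 from the lowest of all genes. The slope was -0.255 log2 units per day (SE 0.0346, adjusted p = 0.000418, edgeR), the steepest of the 17.

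Guide 8 to Med20 went from 166 and 80 plasmid reads to 13, 4 and 0, which is at least 16.5-fold lower at day 12. Guide 2 went from 182 and 65 to 13, 4 and 3, guide 10 from 250 and 108 to 28, 5 and 10, and guide 5 from 115 and 45 to 18, 10 and 6. Guide 9 was not called, with 101 and 43 plasmid reads and 12, 14 and 19 in the cells (log2 changes of -1.33, -1.14 and -0.54). Of the 5 guides left out, guides 1, 4 and 6 had 55, 43 and 77 reads in plasmid library 1 and 2, 0 and 2 at day 12. The other two, guides 3 and 7, had 0 reads in every library, and they are exact reverse complements of each other.
Med20 guide 3: gtattgtgACTTCCTGGTGA
Med20 guide 7: tcaccaggAAGTCACAATAC

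Med17 and Med6 complete the head genes. Med17 (chromosome 9, 15260351 to 15279906) codes for a central head subunit. Its 10 guides held 3306 and 1365 plasmid reads and 903, 726 and 562 in the cells, and the median was -0.26, -0.71 and -0.75 (SD 1.46 at day 12). Its summed reads fell by 0.0585 log2 units per day (SE 0.00875, adjusted p = 0.000663, edgeR), although its median did not reach -1 on any day. With a step between plasmid and cells in place of the slope it was not called (edgeR adjusted p = 0.0592). The 6 guides that fell ended between -3.90 (guide 4) and -0.69 (guide 5) at day 12. Guides 7, 8, 9 and 10 were not called and ended at 0.20, -0.42, 0.31 and 0.31.

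Med6 (chromosome 12, 81573557 to 81595008), a head gene conserved from yeast, had 1461 and 486 plasmid reads on 7 guides and 430, 382 and 325 in the cells. Its median was -0.10, 0.041 and -0.28 (SD 0.66), and the slope of -0.013 log2 units per day (SE 0.013, edgeR adjusted p = 0.424) was not called. Guides 2, 4, 5, 6, 7 and 9 to Med6 lay between -0.66 and 0.86 at day 12 without a call. Guide 8 fell, from 112 and 47 plasmid reads to 28, 16 and 13 (edgeR adjusted p = 0.0182).

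Guides to 4 of the 5 middle genes fell. Med26 (chromosome 8, 72494555 to 72548310), whose product recruits elongation factors to the polymerase, was the gene for which all 10 guides reached -1 or lower at day 12. Its 10 guides held 2164 and 817 plasmid reads and 277, 181 and 118 at days 5, 8 and 12. Every guide was below 0 at all 3 days and at -1.52 or lower at day 12, and all 10 fell in the single-guide test. The median was -1.02, -1.69 and -2.23 (SD 1.24), with a slope of -0.20 log2 units per day (SE 0.016, adjusted p = 5.04e-05, edgeR). Guide 6 set the lower end, with 220 and 56 plasmid reads, 7 at day 5 and 0 at days 8 and 12, at least 16.1-fold lower at day 12.

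Med31 (chromosome 11, 72211724 to 72215592), which codes for a small middle subunit, had 2421 and 850 plasmid reads on 9 guides and 383, 291 and 215 in the cells. Its median was -0.85, -2.30 and -2.52 (SD 1.37). It fell by 0.14 log2 units per day (SE 0.013, adjusted p = 7.23e-05, edgeR). Guides 6 and 10, at 0.52 and -0.29, were not called, and the other 7 fell.

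Med4 (chromosome 14, 73510049 to 73518545) and Med21 (chromosome 6, 146642579 to 146650600) code for core middle subunits. Med4 went from 2419 and 759 plasmid reads on 8 guides to 362, 219 and 219, with medians of -0.83, -1.79 and -1.91 (SD 1.27) and an edgeR adjusted p of 0.000645. Its guides parted into 5 that fell, ending between -3.73 and -1.81, and guides 3, 5 and 7, ending between -0.38 and -0.09. Med21 went from 1923 and 638 reads on 8 guides to 365, 264 and 184, with medians of -0.52, -1.10 and -1.79 (SD 1.07; adjusted p = 0.000163, edgeR). All 8 kept guides of either gene stood below 0 at day 12.

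Med1 (chromosome 11, 98152154 to 98193313), whose product binds nuclear receptors, was the middle gene without a call. Its 7 kept guides held 1560 and 555 plasmid reads and 368, 361 and 352 in the cells, with medians of -0.14, -0.43 and -0.52 (SD 1.13) and a slope of -0.021 log2 units per day (SE 0.013, adjusted p = 0.193, edgeR). That sum hides guides in both directions. Guide 4 was the single guide of the 140 that rose, from 220 and 74 plasmid reads to 72, 92 and 130 (log2 change 1.24; edgeR adjusted p = 0.00221). Guide 7 fell from 195 and 68 to 11, 15 and 10 (-2.20; edgeR adjusted p = 0.000449), guide 3 ended at -1.54 and guide 10 at -1.14, and both fell. Guides 1, 2 and 8 lay between -0.52 and -0.06. Without day 12 the slope of Med1 was called, at -0.0447 log2 units per day, and guide 4 was not called.

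Guides to all 5 tail genes fell, with day 12 medians from -1.75 for Med27 to -0.76 for Med16. Med27 (chromosome 2, 29346810 to 29524790) was the most even of the 17 genes. Its 9 kept guides all fell and 8 of them were at -1 or lower at day 12, the lowest at -2.18, with 1891 and 722 plasmid reads and 277, 208 and 158 in the cells. The median was -0.96, -1.42 and -1.75 with an SD of 0.37, the smallest at day 12 in the set (edgeR adjusted p = 0.000145). Med15 (chromosome 16, 17651208 to 17722947), whose product is bound by SREBP and SMAD factors, went from 1513 and 602 reads on 8 guides to 292, 218 and 153. Its median was -0.72, -1.17 and -1.39 (SD 0.78; adjusted p = 0.000199, edgeR), and all 8 guides were below 0 at each day. With no read minimum its day 12 median was -0.96 (10 guides), and the 1 guide with at least 100 plasmid reads stood at -2.37, or -2.02 against day 5.

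Med23 (chromosome 10, 24869986 to 24913529), a binding partner of the ETS factor ELK1, had medians of -0.60, -0.75 and -1.10 (SD 0.77, n = 7 guides), from 1210 and 413 plasmid reads to 233, 224 and 160 (edgeR adjusted p = 0.00449). Without plasmid library 1 it was not called, with an adjusted p of 0.0753 (edgeR). Med16 (chromosome 10, 79894706 to 79908938) had medians of -0.72, -0.73 and -0.76 (SD 0.62, n = 9 guides), a level already present at day 5, with 385, 365 and 307 reads in the cells after 1751 and 692 in the plasmid libraries (adjusted p = 0.00351, edgeR). A minimum of 100 plasmid reads left 1 guide to Med16, at -0.10 on day 5 and -0.18 on day 12 (edgeR adjusted p = 0.536). Med30 (chromosome 15, 52712445 to 52730431) went from 2418 and 917 reads on 8 guides to 470, 380 and 416, with medians of -0.65, -0.93 and -0.88 (SD 1.57; adjusted p = 0.00731, edgeR). Guide 3 to Med30 (224 and 82 plasmid reads, then 8, 2 and 2) and guide 9 (515 and 177, then 140, 144 and 191) ended at -4.33 and 0.56, the widest gap within a tail gene.

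The 2 kinase module genes lay at different levels, a difference that was not tested. Med12 (chromosome X, 101274091 to 101298934) has a product that activates the module's cyclin-dependent kinase. On the scale of the typical guide Med12 was close to its plasmid level at day 5 and low at day 12. On 9 guides it had 1452 and 500 plasmid reads and 379, 227 and 154 at days 5, 8 and 12. Its median moved from -0.14 at day 5 (SD 0.52) to -0.99 at day 8 (SD 0.62) and -1.76 at day 12 (SD 1.09). Its rank from the lowest of all genes moved from 565 to 209 and 146. The slope was -0.10 log2 units per day (SE 0.020, adjusted p = 0.00221, edgeR). It was not called when a single step between plasmid and cells was fitted in place of the slope (edgeR adjusted p = 0.144).

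Guide 4 to Med12 went from 160 and 42 plasmid reads to 20, 9 and 2, and ended lowest of the 9, at -3.65. Guide 2 went from 111 and 49 to 48, 14 and 7, above its plasmid level at day 5 (0.42) and at -2.03 at day 12. Guide 8, with 50, 44 and 36 reads in the cells after 160 and 40, stayed at 0.043. All 9 guides were lower at day 12 than at day 5.

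Med13 (chromosome 11, 86267033 to 86357596) codes for the subunit that links the kinase module to the core. Its 7 kept guides held 1383 and 544 plasmid reads and 409, 446 and 465 in the cells, and its median was 0.034, -0.020 and 0.35 (SD 0.69). The slope of 0.023 log2 units per day (SE 0.011, adjusted p = 0.0932, edgeR) was not called. It was called in neither direction in any of 12 alternative settings. From summed reads 126% of the plasmid abundance was present at day 12 (exact 95% counting interval 114% to 140%), against 41.3% for Med12 (34.8% to 48.7%). Guides 1, 3, 4, 6 and 10 lay between 0.30 and 0.56 at day 12 and guide 8 at -0.070, while guide 5 lay at -1.42, from 70 and 32 plasmid reads to 9, 16 and 7. The median of 0.35 stood below the 0.58 of the non-targeting guides.

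Against day 5, without use of the plasmid libraries as the reference, 4 of the 17 genes reached a median of -1 or lower at day 12, where 7.02% of all genes did. They were Med20 (-1.28), Med12 (-1.25), Med21 (-1.18) and Med26 (-1.04). With a pseudocount of 5 in place of 1 the number was 2, and the 2 guides to Med21 with at least 100 plasmid reads stood at -0.22. The median was below 0 for 16 of the 17 genes (50.8% of all genes), Med13 being the exception, and at 1 or higher for 0 (0.832% of all genes). Med8 (-0.96) lay just outside. The day 5 median of Med14 was 99.8% of its day 12 median, and that of Med16 93.8%, against 8.20% for Med12. These shares are ratios of separate medians, and they depend on the scale. Non-targeting guides had medians of 0.41 at day 5 and 0.58 at day 12. Centred on these controls, the medians at days 5 and 12 were -0.56 and -2.34 for Med12 and -2.98 and -3.15 for Med14. Guide by guide, the median change from day 5 to day 12 was -0.37, -0.26 and -1.25 for Med14, Med16 and Med12. The change was below 0 for 6 of 10, 6 of 9 and 9 of 9 guides. The guides with at least 100 plasmid reads, 2 to Med14 and 1 to Med16, went from -1.27 to -1.66 and from -0.10 to -0.18 between days 5 and 12. No guide to Med12 had at least 100 reads in both plasmid libraries, so its course could not be given there. With 1 library per day the difference between these courses was not tested.

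Several guides to 1 gene share target sequence, so they are not separate sites. With at least 8 shared bases at their ends, on either strand, 43 pairs overlapped and 69 of the 170 guides were in such a pair. In the 49 cases where a neighbouring guide let the 3 bases after a target be read, all 49 were NGG, the PAM of the commonly used Cas9. The pairs shown next have cut sites at most 11 bases apart, if the cut lies 3 bases from the PAM, and capitals mark the bases they share. The guides of the first pair ended alike, at -2.86 and -3.15, those of the second alike at -2.03 and -2.18, those of the third apart at 0.52 and -2.65, and those of the last apart at -2.27 and 0.31.
Med31 guide 2: ccaGTATGAGCACTTTCGCA
Med31 guide 5: cctTGCGAAAGTGCTCATAC
Med26 guide 9: ccgGAACATGGTGGCAGTGT
Med26 guide 10: ccaACACTGCCACCATGTTC
Med31 guide 6: aaatcgGCTTCGGTTTCAGT
Med31 guide 7: GCTTCGGTTTCAGTtggagt
Med17 guide 3: gacctGCCAGCCCATAACCT
Med17 guide 10: tgccaAGGTTATGGGCTGGC

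Over the 32 overlapping pairs with both guides kept the median difference at day 12 was 1.22 log2 units, and over the 489 other pairs of guides to the same Mediator gene it was 1.02. In all genes the values were 0.69 for 3924 overlapping pairs and 0.74 for 51991 others. Of the 32 overlapping pairs, 20 differed by more than 1. This share was not counted for the 489 other pairs, whose median difference also exceeded 1, or over all genes. GC content did not separate the guides that fell from the others by much: the 92 that fell had a mean of 10.2 G or C bases and the 47 without a call 10.4. Among non-targeting guides the log2 change at day 12 was higher by 0.125 per G or C base, and Mediator guides held a mean of 10.2 such bases against 10.8 over all guides to genes. With this slope subtracted 12 of the 17 medians were at -1 or lower at day 12, where 15.4% of all genes were.

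The other genes of the transcription start machinery are given beside the Mediator genes by count and median. All 11 RNA polymerase II subunit genes fell, with a median of medians of -2.47 at day 12. Of 16 initiation factor genes (symbols starting with Gtf2, Tbp and Tbpl1) 15 fell and 1 rose (-1.81). Of 13 genes with a TAF symbol, among them Taf1b and Taf1c of the polymerase I machinery, 10 fell and 0 rose (-1.48). Of 10 elongation and enhancer partner genes in the library 6 fell and 1 rose (-0.87). Mediator, with 14 of 17 and -1.75, lay among these lists, and no test was made between them. Within Mediator the day 12 medians of medians were -1.91 for the middle, -1.73 for the head, -1.10 for the tail and -0.71 for the kinase genes, with 5, 4, 5 and 2 genes.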

How the data were processed

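Guide reads were counted in 2 plasmid and 3 cell libraries. Per the file headers, the authors deposited an unnormalized count for every guide. The authors used cutadapt, Bowtie and featureCounts with mm10, per the submitters' processing notes; the guide reference they aligned to is not given in the sources used here. Gene symbols were matched to a RefSeq table (1661 directly, 21 by an older name), all 17 Mediator genes directly.

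Guides with at least 30 reads in both plasmid libraries were kept (15336 of 17820). TMM factors, then a quasi-likelihood test of the slope over days (plasmid at day 0, 3 residual degrees of freedom), were computed with edgeR 4.0.16 in R 4.3.3, on guides and on kept reads summed per gene, and tested on simulated data. SE of a slope is its size over the root of the F statistic. DESeq2 1.42.0, other scalings, pseudocounts, filters, a GC correction, means and left-out libraries were alternatives. Every Mediator gene is named. Guide by guide values were set for the 3 lowest and 2 highest medians at day 12 and for genes with guides called in both directions; those given for other genes were chosen after their values were seen. The members and lists were chosen with earlier results of these data known.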

Additional observations from a re-analysis of the deposited data

How the results depend on the processing

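Of the 17 Mediator genes 12 to 16 fell and 0 rose in the trend under 12 alternatives. A minimum of 100 reads left no guide to Med12, so Med12 was not measured there. Over all genes the number falling varied as well, from below the 424 of the main setting to 1068. Of the Mediator genes 10 fell in all alternatives. A median of -1 or lower at day 12 was held by 8 under all alternatives in which they were measured. Neither of these 2 counts was made over all genes. With non-targeting guides as the scale 1068 of all genes fell and 19 rose, the Mediator guides rising were 0, and medians of -1 or lower numbered 11, 14 and 15 for Mediator at days 5, 8 and 12 and 221, 364 and 450 for all genes. Rising genes numbered 386 with library totals, 376 with a minimum of 100 reads and 333 with a step between plasmid and cells. That minimum left 28 falling and 0 rising Mediator guides of the 42 tested, with no count made over all guides. Rising guides were 0 also with the step and without day 12. Against day 5 a pseudocount of 5 gave 2 Mediator and 58 of all genes at -1 or lower. Leaving out a plasmid library gave 13 and 14 falling Mediator genes and 70 and 74 falling Mediator guides. Over all genes the number falling was below the 424 of the main setting in either case. Falling guides were not counted over all guides there. The cause of these shifts was not tested. No paired analysis was possible because the cell samples have no replicate cultures. Depth limits the late values: 3 kept Mediator guides had 0 reads at day 12.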

Other observations

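Guides that are exact reverse complements of another guide in the library had no reads. All 220 such guides, the 2 to Med20 among them, were at 0 in all 5 libraries, and they make up 220 of the 223 guides at 0 throughout. Whether these guides were missing from the plasmid pool or from the counts was not tested.

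The 30 Mediator guides left out by the read minimum held 1785 and 528 plasmid reads and 323, 259 and 193 reads at days 5, 8 and 12. Their summed reads at day 12 were 43.7% of the plasmid abundance, against 49.4% for the 140 guides kept.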
